A study of Mus musculus with 10 samples.

Results

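Motile cilia genes and Foxj1 were followed through 10 kidney libraries of mice. The set holds the protein-coding genes whose symbols begin with Dnah, Dnaic, Dnaaf, Rsph, Tekt, Cfap or Drc and a number, together with Foxj1, Mcidas, Ccdc39, Ccdc40 and Hydin: 72 genes of the 46517 counted, with 1 more that fits the pattern not analysed here. It was chosen because Foxj1 was higher in kidneys of the G2 genotype, so every value that sets G2 against another group is given as a description, without a p. The other members were named by symbol and not by their values.

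The study expressed variants of human APOL1, an apolipoprotein L gene with the kidney risk alleles G1 and G2, in podocytes, epithelial cells of the glomerular filter. Whole kidney was taken from mice with the G1 form of APOL1 (G1, n = 2), from mice with the G2 form (G2, n = 2), from a group whose genotype label reads wild type (single mutant) (n = 3), and from Control mice (n = 3). What single mutant stands for, which promoter drove the transgene, and the strain, sex and age of the mice are not stated in the labels used. Poly(A) RNA was sequenced to between 27596391 and 34815153 counts per library. Whether each library is a different mouse is not stated, and p-values here speak only of the spread among libraries. The tissue's own markers were present, such as Slc34a1, a phosphate transporter of the proximal tubule, and all 8 kidney markers read passed the filter.

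A motile cilium beats because dynein arms, fixed along the microtubule doublets of its axoneme, slide neighbouring doublets against each other. Outer arms set the beat frequency and inner arms the shape of the beat, while radial spokes, the nexin-dynein regulatory complex and the central pair control the arms. Foxj1 is a forkhead transcription factor that switches on the genes of motile cilia, and in multiciliated cells it acts downstream of Gmnc and Mcidas. The tubule cells of the mouse kidney are known for a solitary primary cilium that senses but does not beat.

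Most members were barely present in kidney. Levels are given as counts per 1000000 (CPM) on scaled library sizes. A total of 45 of the 72 members had a mean under 1 CPM over the 10 libraries, 27 reached 1 CPM and 7 reached 10 CPM. The filter on low counts passed 50 members, and 9 of these would not have passed without the libraries of a risk allele: Cfap58, Cfap77 and Drc1 without G1, Cfap74 and Dnah8 without G2, and Ccdc40, Cfap44, Dnah6 and Dnaic2 without both. Where such a gene is high in the group that let it pass, as Cfap58 and Drc1 are in G1, the filter favours a difference. Counts over the 50 therefore describe the members that could be tested and not the whole set. Of the 22 that did not pass, Cfap97d2, Dnah14 and Rsph14 had 0 counts in every library, and no other exceeded 0.698 CPM (Cfap206 in G2 replicate 2).

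Per kilobase of exon, a scale on which genes can be set side by side, the highest mean levels belonged to Cfap298, a factor of dynein arm assembly, at 20.8 CPM per kilobase and to Cfap36 at 14.6. Rsph9, a radial spoke head subunit, followed at 9.03, then the dynein assembly factor Dnaaf5 at 5.72 and Cfap20, which lines the inner junction of the doublets, at 4.87. In none of these 5 genes was a fold change called in any comparison of G1, wild type (single mutant) and Control. Foxj1 stood 13th of the members on that scale, with group means of 0.122 in Control, 0.194 in wild type (single mutant), 1.34 in G1 and 5.19 in G2. At the other end lay Hydin, a central pair protein, at 0.00374 CPM per kilobase. On this scale no Cfap36 library reached the lowest Cfap298 library, while the libraries of Dnaaf5 and Cfap20 overlapped, so those neighbours in the order did not differ beyond their spread.

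**Figure D1:**
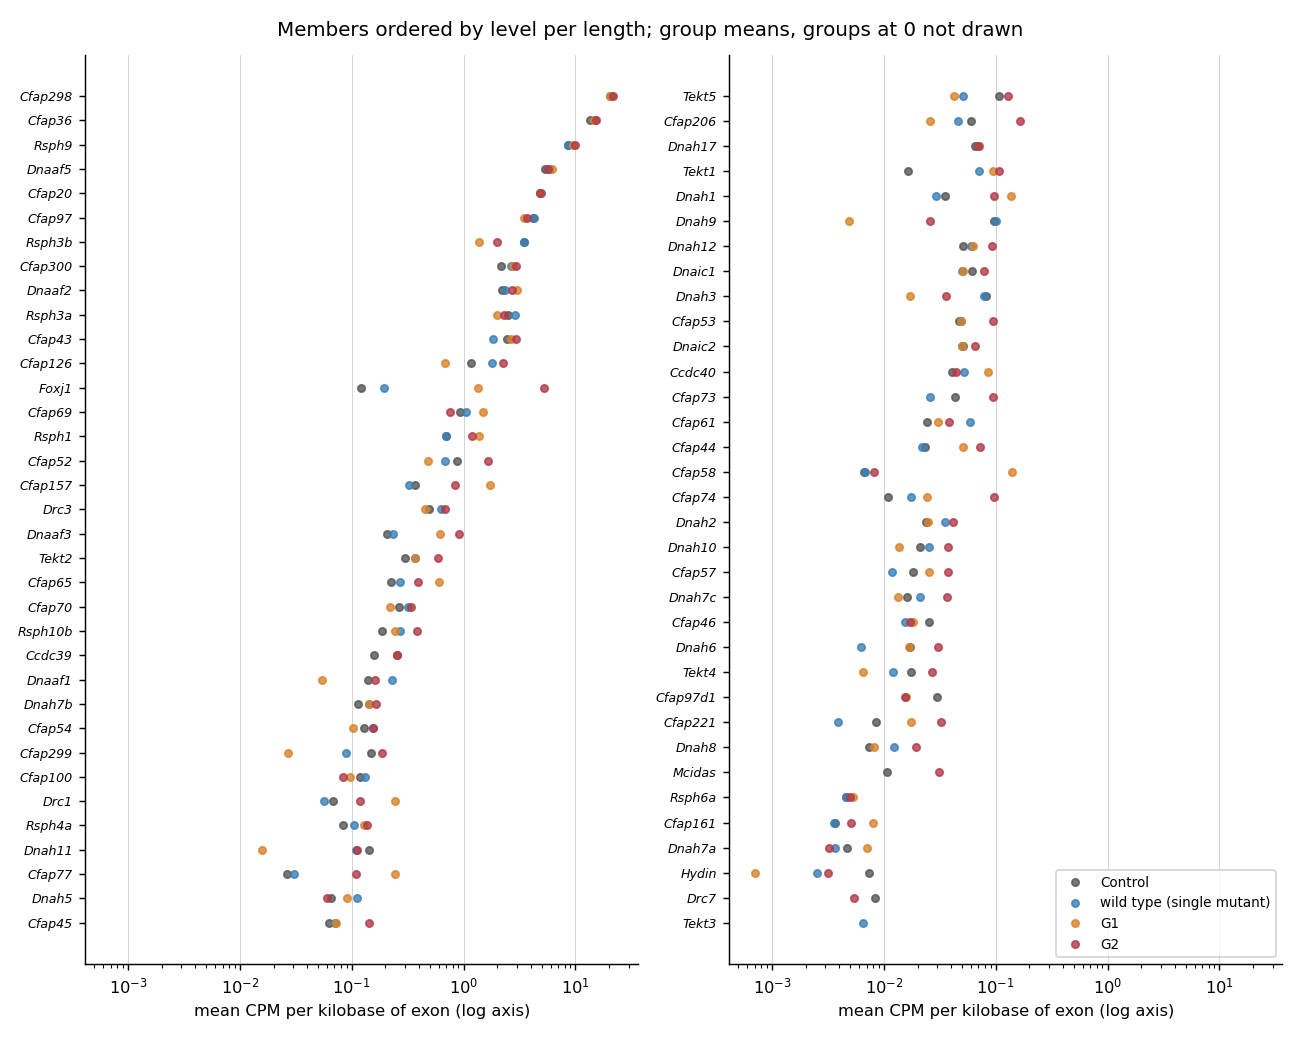
Mean CPM per kilobase of exon (log axis) of the members with any count, ordered by the mean over all 10 libraries, with 1 point for each of the 4 groups and groups at 0 not drawn. Cfap298 leads at 20.8, the 4 points of most well-expressed genes coincide, and those of Foxj1, Dnah9, Dnah11, Cfap58 and Rsph3b spread apart.

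Foxj1 (ENSMUSG00000034227.7, chr11:116330704-116335399, GRCm38) was near the limit of detection in the reference groups and well above it in both risk-allele groups. Its level was 0.278, 0.362 and 0.318 CPM in the Control libraries, 0.582, 0.365 and 0.579 in wild type (single mutant), 3.96 and 3.05 in G1, and 20.2 and 7.00 in G2. These rest on 8, 10 and 8 reads in Control, 17, 10 and 17 in wild type (single mutant), 151 and 121 in G1, and 623 and 281 in G2. Both G1 libraries lay above all 6 reference libraries and below both G2 libraries. The G2 libraries were themselves far apart.

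In G1 Foxj1 rose by 3.44 ± 0.46 on the log2 scale over Control (SE; edgeR quasi-likelihood test, adjusted p = 0.000632), from 0.319 ± 0.0423 CPM (SD, n = 3) to 3.50 ± 0.644 (SD, n = 2). The comparison of G1 with wild type (single mutant) gave 2.77 ± 0.44 (edgeR, adjusted p = 0.00128). The reference libraries of both comparisons may have served to choose the gene by its level in G2, so the tests are not independent of that choice. Both calls held under every alternative run, with adjusted p of at most 0.0111 and 0.0163. Between wild type (single mutant) and Control the log2 difference was 0.67 ± 0.47 (edgeR, adjusted p = 1.0). As a description, G2 stood 5.40 above Control, 4.73 above wild type (single mutant) and 1.96 above G1 on the log2 scale.

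Of the 50 members that could be tested in G1 against Control, 9 rose and 4 fell, with Cfap58 and Drc1, which the G1 libraries let through the filter, among the 9. Foxj1, whose rise in G2 chose the set, is also among the 9. Over all 17823 genes tested the share that rose was 19.5% and the share that fell 17.9%, and 37.3% were called in either direction, so that calls among the members were no more frequent than among all genes. The median log2 difference was 0.18 over the members and -0.02 over all genes. An unadjusted p under 0.05 was met by 18 of the members (36.0%) and by 47.3% of all genes. The calls fell on several parts of the axoneme, with dynein heavy chains in both directions. Scaling moved the split: by library totals alone, which lifts the median of all genes from -0.02 to 0.27, 15 members rose and 4 fell, beside 31.9% and 9.92% of all genes. Without G1 replicate 1, 5 members and 12.3% of all genes rose, so the members' counts moved with the background.

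**Figure D2:**
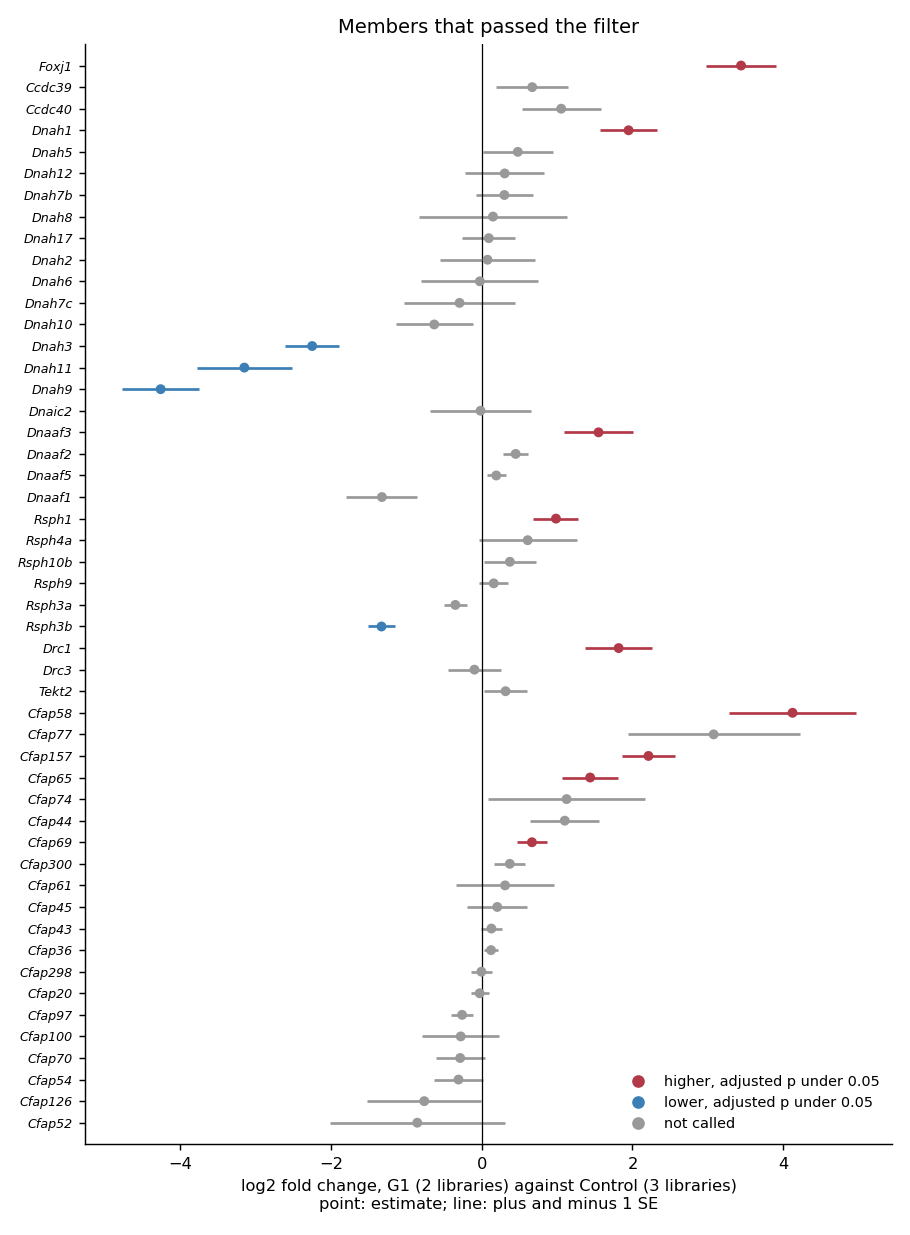
Log2 fold change of G1 (2 libraries) over Control (3 libraries) for the 50 members that passed the filter, grouped by class, with lines of 1 SE on either side. Foxj1 at 3.44 and Cfap58 at 4.12 lie farthest right and Dnah9 at -4.26 farthest left, and 37 members are grey (not called).

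Among the inner arm heavy chains, the motors that shape the beat, Dnah1 rose and Dnah3 fell. Dnah1 read 0.659, 0.326 and 0.398 CPM in Control, 0.548, 0.329 and 0.273 in wild type (single mutant), 1.70 and 1.89 in G1, and 1.30 and 1.22 in G2. All libraries with a risk allele were above all others. In G1 it rose by 1.95 ± 0.38 on the log2 scale over Control (SE; edgeR, adjusted p = 0.00393). Dnah3 read 1.39, 0.942 and 1.19 CPM in Control, 1.03, 0.95 and 1.43 in wild type (single mutant), 0.236 and 0.252 in G1, and 0.584 and 0.448 in G2. Here the order was turned round, with every risk-allele library under every other one. Dnah3 fell by 2.25 ± 0.35 in G1 (SE; edgeR, adjusted p = 0.00148). Its exons overlap those of Lyrm1 on the opposite strand, which had a log2 difference of -0.54 (edgeR, adjusted p = 0.0657). The strand setting of the counting is not stated, so reads of such partners cannot be told apart. The same holds for opposite-strand exon overlaps of Ccdc39, Cfap45, Cfap52, Cfap65, Cfap157, Cfap298, Dnaaf1, Dnaaf2, Dnaaf3, Dnaaf5, Hydin, Rsph3a, Rsph3b, Rsph10b and Tekt2. It also holds for those of Dnah1, Dnah2, Dnah6, Dnah8, Dnah9, Dnah10, Dnah17 and Dnaic1. Exons of Cfap43, Dnaaf2, Dnaaf3 and Rsph10b overlap a gene on the same strand, where a known strand setting would not separate the reads. Dnah2, Dnah6, Dnah7b, Dnah7c, Dnah10 and Dnah12, also of the inner arms, lay between -0.63 (Dnah10) and 0.31 (Dnah12) and were not called. Dnah7b and Dnah7c are near copies of each other and of Dnah7a, so the division of reads among them is uncertain.

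The outer arm heavy chains, which supply most of the force, contained the largest fall among the members. Dnah9 read 1.39, 1.56 and 1.71 CPM in Control, 1.44, 2.16 and 1.26 in wild type (single mutant), 0.105 and 0.0504 in G1, and 0.552 and 0.274 in G2. Both G1 libraries were nearly empty of it, and the G2 libraries lay between them and the reference libraries without overlap. In G1 it fell by 4.26 ± 0.51 on the log2 scale (SE; edgeR, adjusted p = 0.000375). Dnah11 read 1.70, 2.54 and 1.99 CPM in Control, 1.33, 1.75 and 1.64 in wild type (single mutant), 0.157 and 0.302 in G1, and 0.617 and 2.64 in G2. The G2 libraries were split to either side of the reference libraries, whereas both G1 libraries lay under all of them. Dnah11 fell by 3.15 ± 0.63 in G1 (SE; edgeR, adjusted p = 0.0048), and its overlapping neighbour Cdca7l on the opposite strand had a log2 difference of 0.09 (edgeR, adjusted p = 0.889).

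Dnah5, the outer arm chain that pairs with Dnah9 or Dnah11 in airway cilia, read 1.11, 0.543 and 1.39 CPM in Control and 1.44 and 1.39 in G1. Its G1 values lay near the top of the Control range, and the difference of 0.48 ± 0.46 was not called (edgeR, adjusted p = 0.445). Dnah17 and Dnah8, the outer arm chains of the sperm tail, had log2 differences of 0.09 and 0.15 and were not called. Among the intermediate chains of the outer arm, Dnaic2 had a difference of -0.01 and Dnaic1 did not pass the filter, with at most 0.26 CPM in any library. Of the 13 heavy chains tested, Dnah1 rose, Dnah3, Dnah9 and Dnah11 fell and the other 9 were not called, beside 37.3% of all genes called in either direction.

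**Figure D3:**
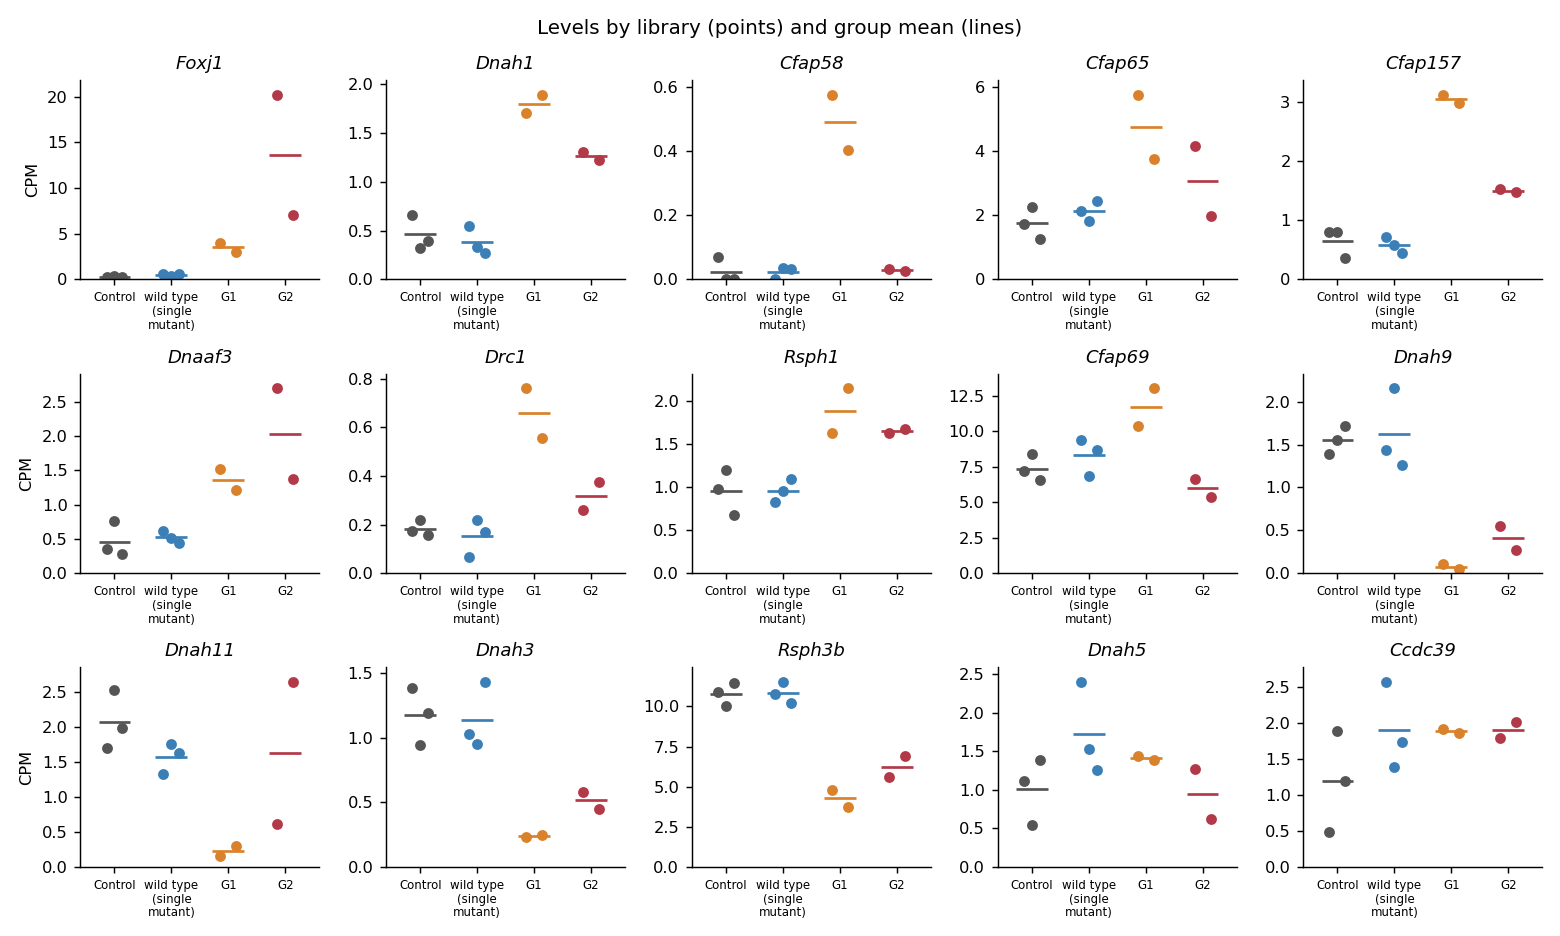
CPM of 15 members in each library (points) and the mean of each group (lines), every vertical axis starting at 0. Foxj1, Dnah1, Cfap157 and Dnaaf3 are above the reference libraries in G1 and G2, Cfap58 in G1 with G2 at the reference level, and Dnah9, Dnah3 and Rsph3b below them in both.

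The dynein assembly factors fold and load the arms in the cytoplasm before transport into the cilium. In G1 against Control 1 of the 4 rose, beside 19.5% of all genes. Dnaaf3 read 0.347, 0.761 and 0.279 CPM in Control, 0.616, 0.511 and 0.443 in wild type (single mutant), 1.52 and 1.21 in G1, and 2.70 and 1.37 in G2, so that all risk-allele libraries were higher than all others. It rose by 1.55 ± 0.46 in G1 (SE; edgeR, adjusted p = 0.0272), a call lost without G1 replicate 1 (adjusted p = 0.134), G1 replicate 2 (0.075), Control replicate 1 (0.0822) or Control replicate 3 (0.0769). Dnaaf1 was lower in both G1 libraries, at 0.131 and 0.176 CPM, than in every reference library, and its difference of -1.32 ± 0.47 missed the threshold against Control (edgeR, adjusted p = 0.0539). Against wild type (single mutant) Dnaaf1 fell by 2.06 ± 0.46 (SE; edgeR, adjusted p = 0.00766), but not without G1 replicate 1 (adjusted p = 0.0706). Dnaaf2, at 7.46 ± 0.963 CPM in Control (SD, n = 3) and 10.2 ± 0.597 in G1 (SD, n = 2), was not called (edgeR, adjusted p = 0.061), nor was Dnaaf5 at 18.9 ± 2.30 and 21.6 ± 0.316. Both G1 libraries of Dnaaf2 lay above all reference libraries. In 3 of 11 alternatives Dnaaf2 was called: library totals alone, limma with voom, and DESeq2. Dnaaf5 was called by library totals alone, and Dnaaf1 was called against Control without Control replicate 1.

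Of the radial spokes, the T-shaped structures that carry signals from the central pair to the arms, a head subunit rose and a stalk subunit fell. Rsph3b read 10.9, 9.996 and 11.5 CPM in Control, 10.8, 11.5 and 10.2 in wild type (single mutant), 4.83 and 3.75 in G1, and 5.59 and 6.93 in G2, with no overlap between the risk-allele libraries and the rest. In G1 it fell by 1.33 ± 0.18 (SE; edgeR, adjusted p = 0.00066). Its near copy Rsph3a read 8.64, 7.13 and 6.96 in Control, 8.76, 8.73 and 8.76 in wild type (single mutant), 5.98 and 5.92 in G1, and 6.85 and 6.88 in G2. Rsph3a fell against wild type (single mutant) by 0.56 ± 0.15 (SE; edgeR, adjusted p = 0.0182), a call lost by library totals alone (-0.25, adjusted p = 0.264), without the filter (0.0768) and without G1 replicate 1 (0.0913) or 2 (0.121). The 2 genes can share reads, so their separate values are uncertain. Rsph1, of the spoke head, read 0.972, 1.20 and 0.676 CPM in Control and 1.63 and 2.14 in G1. It rose by 0.99 ± 0.30 (SE; edgeR, adjusted p = 0.0295), narrowly: the call was lost in 6 of 11 alternatives, among them leaving out G1 replicate 1 (0.0581), G1 replicate 2 (0.183), Control replicate 1 (0.066) or Control replicate 3 (0.0799). Rsph9 at 13.7 ± 2.07 CPM in Control (SD, n = 3) and 15.3 ± 3.18 in G1 (SD, n = 2), Rsph4a and Rsph10b were not called.

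The nexin-dynein regulatory complex and the ruler proteins Ccdc39 and Ccdc40 hold the arms at regular places. Drc1, the complex's core subunit, read 0.174, 0.217 and 0.159 CPM in Control, 0.0684, 0.219 and 0.170 in wild type (single mutant), 0.760 and 0.554 in G1, and 0.260 and 0.374 in G2. The G1 libraries were highest and the G2 libraries next. It passed the filter only because of the G1 libraries, where it is high, so the value with no filter on low counts is given: a rise of 1.84 in G1 on the log2 scale (edgeR, adjusted p = 0.0197). With the filter the difference was 1.82 ± 0.44 (SE), and without G1 replicate 1 it was not called (edgeR, adjusted p = 0.0933). Drc3 was not called at -0.10 ± 0.35, and Drc7 held at most 0.0398 CPM in any library. Ccdc39 and Ccdc40 differed by 0.67 ± 0.48 and 1.05 ± 0.52 in G1, neither of which was called (edgeR, adjusted p = 0.297 and 0.144). Tekt2, a tektin that lines the inside of the doublets, was not called at 0.32 ± 0.29, and the other tektins did not pass the filter.

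The Cfap genes, a mixed class of cilia and flagella proteins, gave 4 rises in G1 among the 20 tested, close to the 19.5% of all genes. Cfap157, a protein of the sperm axoneme, read 0.798, 0.797 and 0.358 CPM in Control, 0.719, 0.584 and 0.443 in wild type (single mutant), 3.12 and 2.97 in G1, and 1.53 and 1.47 in G2. Every risk-allele library was above the others, and G1 rose by 2.21 ± 0.35 (SE; edgeR, adjusted p = 0.0016). The call held under every alternative run, with an adjusted p of at most 0.0128. Its exons are among those that overlap another gene, so its counts carry the limit on strand given for Dnah3.

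Cfap58, needed for the sperm tail, was the member that set the 2 risk alleles most apart. It read 0.577 and 0.403 CPM in G1 against 0.0325 and 0.0249 in G2, and at most 0.0694 in any reference library. The G1 libraries held 38 reads together and Control 2, both in replicate 1, a ratio of 19.9 with an exact 95% counting interval of 5.15 to 170. Cfap58 too passed the filter only because of G1, and with no filter on low counts it rose by 4.15 on the log2 scale (edgeR, adjusted p = 0.00334). The fitted difference with the filter was 4.12 ± 0.84 (SE), and without Control replicate 1, which left no Control read, 6.98. Cfap65, of the sperm tail, read 1.74, 2.25 and 1.27 CPM in Control and 5.77 and 3.75 in G1, a rise of 1.44 ± 0.37 (SE; edgeR, adjusted p = 0.0143) that was lost without G1 replicate 1 (adjusted p = 0.119). Cfap69 read 7.18, 8.37 and 6.56 in Control and 10.4 and 13.0 in G1, a rise of 0.67 ± 0.20 (SE; edgeR, adjusted p = 0.0281), lost without G1 replicate 2 (0.186), Control replicate 1 (0.0721) or Control replicate 3 (0.0802).

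The best expressed Cfap genes kept close to their Control level. Cfap298 measured 32.4 ± 1.61 CPM in Control (SD, n = 3) and 32.3 ± 0.311 in G1 (SD, n = 2), a log2 difference of 0.00 ± 0.14. Cfap20 measured 22.1 ± 2.44 and 21.7 ± 0.151, a difference of -0.03 ± 0.12. Cfap36 measured 37.0 ± 0.107 and 40.4 ± 1.41, a difference of 0.12 ± 0.09 (edgeR, adjusted p = 0.303). The SE of these 3 genes was at most 0.14. By library totals alone, where the median of all genes is 0.27, Cfap36 stood at 0.42 and was called. Cfap43, which tethers inner arms, was called against wild type (single mutant) only, where it rose by 0.54 ± 0.14 (SE; edgeR, adjusted p = 0.0144). That call was lost without G1 replicate 1 (adjusted p = 0.0642) or 2 (0.0718), and against Control the difference was 0.13 ± 0.14.

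Set against wild type (single mutant), 9 members rose in G1 and 6 fell, where 20.2% of all genes rose and 18.7% fell (39.0% in either direction). Both comparisons use the same 2 G1 libraries. Dnah1 rose by 2.22, Cfap157 by 2.38, Cfap58 by 4.18, Drc1 by 2.08, Dnaaf3 by 1.38, Cfap65 by 1.16 and Rsph1 by 0.98, beside Foxj1 and Cfap43. Of these, Cfap58 and Drc1 passed the filter only through the G1 libraries, where they are high. With no filter on low counts they rose by 4.20 and 2.10 (edgeR, adjusted p = 0.00274 and 0.00903). Dnah9 fell by 4.32, Dnah11 by 2.75, Dnah3 by 2.20 and Rsph3b by 1.33, beside Dnaaf1 and Rsph3a. Cfap69 was not called here (0.50 ± 0.20, edgeR, adjusted p = 0.0781). Leaving out G1 replicate 1 gave 4 rises and 3 falls (13.3% and 10.9% of all genes), and among the lost calls were Dnah11 (adjusted p = 0.0706), Drc1 (0.0557), Cfap65 (0.228), Dnaaf3 (0.176) and Rsph1 (0.0561). Rsph1, Cfap65 and Dnaaf3 were also lost without G1 replicate 2 (0.185, 0.0501 and 0.0968) and without wild type (single mutant) replicate 1 (0.0833, 0.0784 and 0.0652) or 2 (0.0665, 0.0919 and 0.0901), and Dnaaf3 without replicate 3 (0.0922).

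No member was called between wild type (single mutant) and Control by edgeR, where 0.0% of all genes were called. With 1 member at an unadjusted p under 0.05 and 724 of the 17823 genes, the comparison gave few low p-values at all. DESeq2 and limma with voom called none of the members either. The group labelled wild type (single mutant) thus gave no called difference from Control in any axoneme gene tested, although differences such as 0.77 ± 0.42 for Dnah5 leave room for changes that these 6 libraries could not show.

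In G2 the picture differed by member, and the values are a description throughout. By the same threshold 7 members were higher than Control and 3 lower, beside 12.7% and 8.86% of all genes. Higher were Foxj1, Cfap74 (log2 3.10), Dnaaf3 (2.12), Cfap44 (1.63), Dnah1 (1.44), Cfap157 (1.19) and Tekt2 (0.98), and lower were Dnah9 (-1.92), Dnah3 (-1.19) and Rsph3b (-0.78). Cfap74 passed the filter only through the G2 libraries, and Cfap44 only through those of G1 and G2. For both genes the filter therefore favours a difference. The number higher was 2 without G2 replicate 1, 3 without G2 replicate 2, 3 without Control replicate 1, 2 without Control replicate 3, and 1 when only the G2 and Control libraries entered the fit, settings in which 6.32% to 9.57% of all genes were higher. Without G2 replicate 1 fewer members, and a smaller share of all genes, were lower. Against wild type (single mutant), 6 were higher and 3 lower, where 14.7% and 10.5% of all genes were (25.2% in either direction).

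The G2 replicates lay far apart in some members and close together in others. Cfap74, of the central apparatus, read 0.292 and 1.62 CPM in G2 and at most 0.274 in any reference library, and its exons overlap 5830444B04Rik on the opposite strand, whose mean was 2.27 CPM in G2 and 0.0116 in Control. Cfap44, a partner of Cfap43, was closer, with 0.552 and 0.673 CPM in G2, 0.577 and 0.277 in G1, and at most 0.243 in the reference libraries. Cfap45, a protein inside the doublets, read 0.747 and 0.872 in G2 and at most 0.513 elsewhere, and Rsph10b read 1.40 and 0.972 in G2 and at most 0.920 elsewhere. Dnah12 read 1.04 and 1.17 in G2 and at most 0.954 elsewhere. In these last 3 genes the G2 libraries were highest by a small margin.

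Set directly against G1, 3 members were higher in G2 (Foxj1 by 1.96, Dnah9 by 2.34 and Dnah11 by 2.81 on the log2 scale) and 2 were lower (Cfap58, at -3.94, and Cfap69, at -0.96), beside 3.84% and 2.88% of all genes (6.72% in either direction). Cfap58 passed the filter only through the G1 libraries, where it is high. Without G1 replicate 1 none was called in either direction, beside 0.368% and 0.0866% of all genes. Fewer members and smaller shares of all genes were also called without G1 replicate 2, G2 replicate 1 or G2 replicate 2 than with all libraries. Over the 50 members that passed, G1 stood clear of all 6 reference libraries in 14 members on the high side and 7 on the low side, while 27.6% and 26.7% of all genes tested did so. For G2 these were 12 and 4 members, beside 21.8% and 18.1%. Foxj1, whose rise in G2 chose the set, is among the 14 of G1 and the 12 of G2. Some of the members on the high side had passed the filter only through risk-allele libraries. These were Cfap44, Cfap58, Cfap77 and Drc1 among the 14 of G1, and Cfap44, Cfap74 and Drc1 among the 12 of G2. The summed level of all 72 members ran from 227 to 276 CPM over the 10 libraries, lowest in a Control library and highest in G2 replicate 1, and 23 to 29 members reached 1 CPM in a library.

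Promoter sequence was read beside the rises and falls. The RefSeq promoters of GRCm38.p6 gave 66 entries for 59 of the 72 members, and the 250 bases before each start were searched on both strands for GTTGCC, the core of the X-box that RFX factors bind, and for the forkhead motifs TGTTTAC and TGTTTGC. This core was present in 33.3% of the members' entries and in 10.4% of all 32851 promoters of that length. TGTTTAC was present in 6.06% against 3.17%, and TGTTTGC in 7.58% against 4.30%. Of the members that rose in G1 with an entry, Cfap58 and Drc1 of 5 held GTTGCC, and of those that fell, 0 of 3 did. Both Cfap58 and Drc1 passed the filter only through the G1 libraries. With so few entries these counts cannot be set apart from the 33.3% of all the members' entries. A match is a run of letters and not a shown binding site. The promoters shown are those of the 2 risen genes with a match and of the 2 that fell most, 5′ to 3′ on the gene's strand and ending 41 bases before the start in Cfap58, 6 in Drc1 and 1 in Dnah9 and Dnah11, with GTTGCC or its reverse complement in capitals: Cfap58 at chr19:47937462-47937671 (+), Drc1 at chr5:30281143-30281387 (+), Dnah9 at chr11:66168552-66168801 (-) and Dnah11 at chr12:118199044-118199293 (-).
Cfap58: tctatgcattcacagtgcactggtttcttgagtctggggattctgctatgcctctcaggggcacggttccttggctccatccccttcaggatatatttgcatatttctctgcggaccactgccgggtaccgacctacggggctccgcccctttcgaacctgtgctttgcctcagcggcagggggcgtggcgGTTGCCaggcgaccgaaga
Drc1: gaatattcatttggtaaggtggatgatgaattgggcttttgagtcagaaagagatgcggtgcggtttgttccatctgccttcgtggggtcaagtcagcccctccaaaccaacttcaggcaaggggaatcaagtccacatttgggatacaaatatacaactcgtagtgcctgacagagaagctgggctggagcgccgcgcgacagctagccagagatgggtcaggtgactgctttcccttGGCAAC
Dnah9: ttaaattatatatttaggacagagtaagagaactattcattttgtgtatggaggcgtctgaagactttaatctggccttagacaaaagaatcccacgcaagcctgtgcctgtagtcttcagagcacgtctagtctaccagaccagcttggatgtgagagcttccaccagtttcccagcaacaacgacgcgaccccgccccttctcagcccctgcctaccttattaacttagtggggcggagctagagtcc
Dnah11: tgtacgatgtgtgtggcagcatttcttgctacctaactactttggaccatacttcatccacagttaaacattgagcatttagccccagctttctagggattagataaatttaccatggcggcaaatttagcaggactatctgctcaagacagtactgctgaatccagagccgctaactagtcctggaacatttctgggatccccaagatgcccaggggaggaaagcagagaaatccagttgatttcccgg
Counted from the start itself and not from the end of the printed run, the match begins 59 bases before it in Cfap58 and 11 bases before it in Drc1. The letters GTTGCC are in neither strand of the Dnah9 and Dnah11 windows. Because the risen genes were shown for their match, the printed windows do not compare risen with fallen members.

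The upstream regulators of multiciliation were read next. Mcidas, which with E2f4 or E2f5 and Tfdp1 starts the programme, had 0 counts in both G1 libraries, in G2 replicate 1 and in all of wild type (single mutant), and 0.149 CPM at most, in G2 replicate 2. Gmnc, above Mcidas in the cascade, read 0.0262 and 0.0252 CPM in G1, 0.0325 and 0.0498 in G2, and up to 0.312 in Control. Gmnc was thus under the floor of 3 counts per library in all G1 and G2 libraries, and Mcidas in all but G2 replicate 2. Of 19 regulators 14 could be tested, and 5 rose in G1 against Control with a median of 0.29, where 19.5% of all genes rose with a median of -0.02. Plk4, the kinase of centriole duplication, rose by 2.12, Myb by 3.16, Gmnn, the geminin that binds Mcidas, by 1.07, Tfdp1 by 0.69 and E2f4 by 0.34 (edgeR, adjusted p between 0.000269 and 0.00779). Deup1 and Ccno, which serve the mass production of centrioles in multiciliated cells, had differences of 0.29 ± 0.47 and -0.79 ± 0.94 and were not called. Rfx2 and Rfx3, RFX factors that act with Foxj1, were not called at -0.50 ± 0.32 and -0.26 ± 0.22, nor were Rfx1, E2f5, Cep63, Cep152 and Ccdc78. Without G1 replicate 2, fewer regulators and a smaller share of all genes rose.

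**Figure D4:**
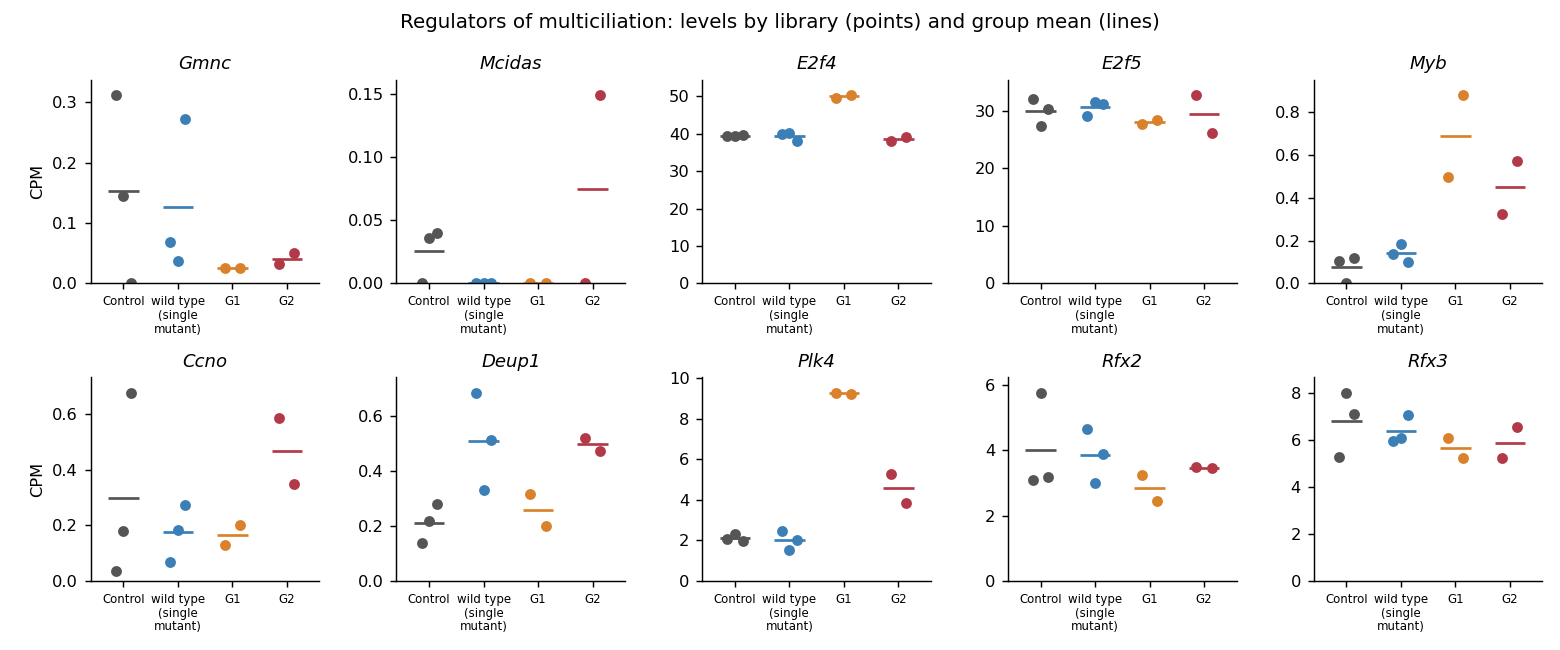
CPM of 10 regulators of multiciliation in each library (points) and group means (lines), every vertical axis starting at 0. Plk4, Myb and E2f4 are highest in G1, with E2f4 at 49.6 and 50.4 against 37.9 to 40.2 elsewhere, while Mcidas and Gmnc are at most 0.149 and 0.312 in any library.

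Plk4, Gmnn, Myb and Tfdp1 also serve dividing cells, and cell-cycle genes moved with them. All 16 cell-cycle genes rose in G1, with a median of 3.98, and their sum was 380 to 471 CPM in G1, 160 to 214 in G2, 61.0 to 77.3 in wild type (single mutant) and 59.0 to 60.6 in Control. Mki67, the proliferation antigen, rose by 4.35 ± 0.24 (SE; edgeR, adjusted p = 2.24e-05). All 12 tubular injury genes rose as well, among them Lcn2 by 6.68 and Havcr1 by 6.83, and of 8 kidney identity genes Slc34a1, Lrp2 and Slc12a3 fell. Over all genes tested in G1 against Control, 19.5% rose and 17.9% fell. Among 12 T cell genes 6 rose, with sums of 21.4 to 33.5 CPM in G1, 35.4 to 49.3 in G2 and 11.1 to 20.2 in the reference groups. The part of these changes in the members' values was not tested, and in whole kidney fewer cells of a type and less RNA per cell cannot be told apart.

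Other axoneme genes, 40 tested of 54 counted, went both ways in G1: 3 rose and 6 fell, with a median of -0.02, where 19.5% of all genes rose and 17.9% fell. Gas8, a subunit of the nexin-dynein regulatory complex, rose by 0.69, Mns1, a protein inside the doublets, by 1.53, and the dynein light chain gene Dynlrb2 by 2.34. Zmynd10, an assembly factor of the dynein arms, fell by 1.54, from 32.4 ± 5.08 CPM in Control (SD, n = 3) to 11.1 ± 2.95 in G1 (SD, n = 2; edgeR, adjusted p = 0.00574). The outer arm docking genes Ccdc151 and Ttc25 fell by 1.70 and 1.05, the outer arm light chain gene Dnal1 by 0.72, the inner arm gene Wdr78 by 0.93 and Iqcg, of the regulatory complex, by 0.80. By library totals alone 7 rose and 2 fell, beside 31.9% and 9.92% of all genes. Leaving out either G1 library lowered the number of falls, and also the share of all genes that fell. Without G1 replicate 2 fewer rises were called, in the list and over all genes. Without Control replicate 1 or 3 there was 1 rise, beside 16.1% and 16% of all genes. In G2, described only, 4 were higher than Control and 0 lower, where 12.7% of all genes were higher and 8.86% lower. The list's median was 0.37 beside 0.04 over all genes.

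Genes of the primary cilium and of intraflagellar transport, which tubule cells use without any motility, were all tested. Of the 62, 8 rose and 10 fell in G1 with a median of -0.04, both under the shares of all genes (19.5% and 17.9%). Ift43 of the retrograde transport complex rose by 1.16, B9d1 of the transition zone by 0.86, while Ahi1, also of the transition zone, fell by 0.91 and the transport gene Ift122 by 0.73. By library totals alone 18 rose and 3 fell, beside 31.9% and 9.92% of all genes. Leaving out either G1 library lowered the number of falls, and also the share of all genes that fell. Without G1 replicate 1 the rises were fewer too, in the list and over all genes. Without Control replicate 1 there were 5 rises, beside 16.1% of all genes. Without Control replicate 3 there were 5 rises and 6 falls, beside 16% and 14.5%. Without the filter there were 4 falls, beside 9.05%. The sum of the list ran from 1406 to 1481 CPM in G1 and from 1433 to 1608 in Control, so that primary cilium transcripts outweighed those of the members in every library.

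Tissues with motile cilia or flagella that could be carried along were read through their own markers. Markers of male germ cells were scarce: 10 of 13 did not pass the filter, 6 were at 0 in both G1 libraries, and Smcp, a sperm mitochondrial protein gene, fell by 3.67 in G1. The 10 markers of airway, oviduct and other secretory epithelium summed to 1.28 to 1.51 CPM in G1, 1.01 to 1.59 in G2, 0.616 to 0.804 in wild type (single mutant) and 0.543 to 0.637 in Control, and 9 of them did not pass the filter. Ovgp1, an oviduct glycoprotein gene, was the 1 tested and rose by 0.96 in G1 (edgeR, adjusted p = 0.0307). Of the ependyma and choroid plexus markers Otx2 was at 0 in every group and Ttr, which other tissues also make, read 141 and 114 CPM in G1, 332 and 1.35 in G2, 400, 314 and 3.17 in wild type (single mutant), and 1.83 to 2.86 in Control. Ttr was therefore high in 5 libraries of 3 groups, in a pattern that Foxj1 did not share. Of the 5 markers in that list 4 were tested in G1 against Control, where 1 rose and 1 fell. Their median log2 difference was -1.66, and of all genes 19.5% rose and 17.9% fell. The part of any of these tissues in the Foxj1 values was not tested.

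The urothelium, the lining of the renal pelvis, gave yet another pattern. The 5 uroplakin genes summed to 8.78 and 52.2 CPM in G1, 8.51 and 161 in G2, 51.8, 38.8 and 22.9 in wild type (single mutant), and 51.1, 29.5 and 54.9 in Control. Cfap52, singled out after its values were seen, read 0.341 and 1.89 in G1, 0.325 and 7.33 in G2, 0.513, 2.48 and 1.77 in wild type (single mutant), and 2.08, 0.978 and 3.02 in Control. Cfap52 and the uroplakins were lowest in G2 replicate 1 and highest in G2 replicate 2. Foxj1 was highest, at 20.2 CPM, in G2 replicate 1, where the uroplakins were lowest. Krt20, a keratin of urothelium that is also in the injury list, rose in G1 by 7.24 ± 0.59 (SE; edgeR, adjusted p = 6.72e-05). With Krt20, Krt5 and Krt13 the list holds 8 markers, which summed to 185 to 228 CPM in G1 and 27.0 to 194 in G2. The sums were 25.5 to 62.1 in wild type (single mutant) and 31.4 to 62.3 in Control. Of the 7 tested, 1 rose and 0 fell in G1 against Control, with a median of -0.46, where 19.5% of all genes rose and 17.9% fell.

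**Figure D5:**
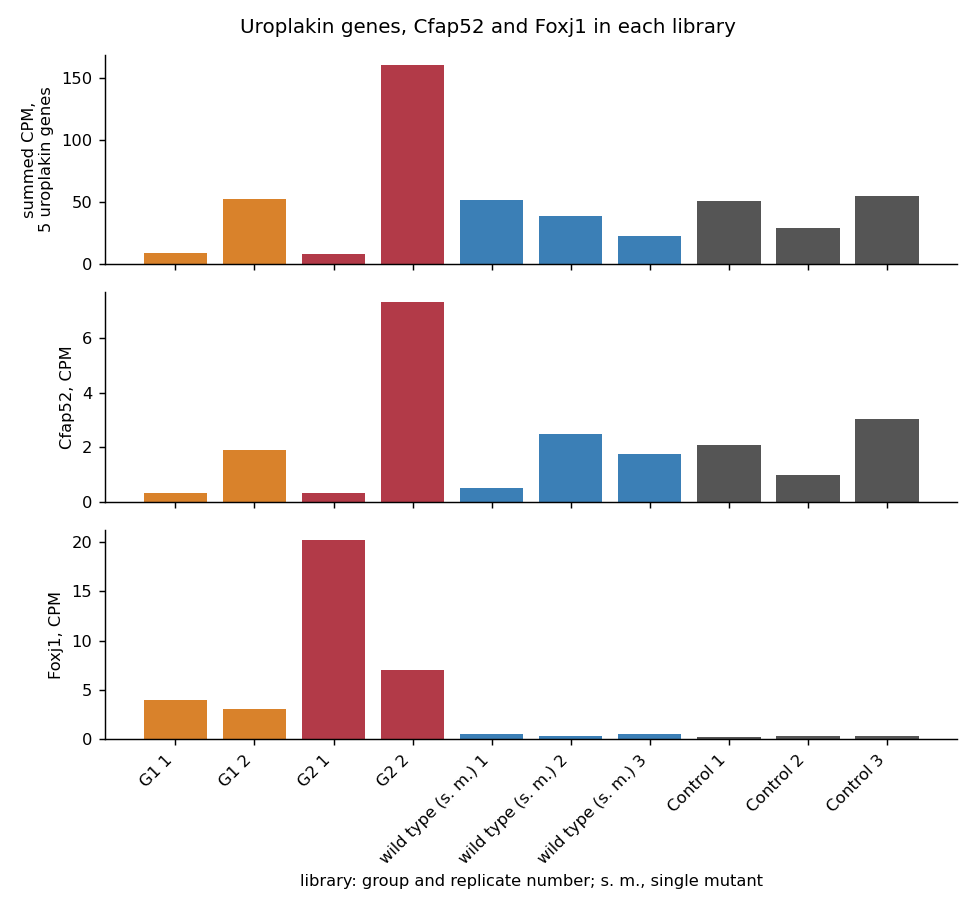
Summed CPM of 5 uroplakin genes, CPM of Cfap52 and CPM of Foxj1 in each of the 10 libraries (bars from 0, coloured by group). The tallest uroplakin and Cfap52 bars stand in G2 replicate 2 (161 and 7.33) and the tallest Foxj1 bar in G2 replicate 1 (20.2).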

How the data were processed

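Poly(A) RNA of mouse kidney was sequenced as single-end reads of 100 bases. The authors deposited raw counts per Ensembl gene, 1 table per library, without normalization. Per the submitters' processing notes reads were handled with STAR 2.4.1d, HTSeq 0.6.1, CASAVA 1.8.2, Trim Galore and FastQC on GRCm38. Strandedness, annotation release and settings are not given in the sources used. The labels name both an RNeasy and a miRNeasy kit.

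Symbols and coordinates came from GENCODE M21 (46005 of 46517 IDs matched). The test, in R 4.3.3, was edgeR 4.0.16: scaling by TMM, low genes removed by filterByExpr (minimum count 10), and a quasi-likelihood fit of all 10 libraries with 4 group means (common biological coefficient of variation 0.249). Rises, falls and calls are genes with an adjusted p (Benjamini-Hochberg) under 0.05 over the 17823 genes tested. SE was taken from the fold change and its F statistic. Of 6 comparisons, the 3 with G2 carry no p. Comparisons with Control share its libraries. A library's floor of 3 counts was 0.0862 to 0.109 CPM, and intervals cover counting error only. No 2 libraries were alike within sampling noise, and 0 columns were of an unknown sample. The fits were also run on simulated counts with few changed genes and a single fixed spread. That setting is simpler than these data, so the run does not show how the fits perform here.

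Alternatives were limma 3.58.1 with voom, DESeq2 1.42.0, library totals alone, no filter, a mean of at least 1 CPM, only the 2 groups compared, and leaving out each library. Tables and figures used Python 3.11.15, pandas 2.3.3, scipy 1.17.1 and matplotlib 3.10.9. Members, 11 gene lists and tests were chosen with earlier results of these data known. After the values were seen, members that passed through 1 group were given without the filter. Named were Foxj1, Mcidas, Ccdc39, Ccdc40 and Hydin, up to 6 called members a class, the 3 highest per kilobase of each class, up to 4 members a direction and class whose G2 libraries did not overlap the 6 reference libraries, up to 4 genes a list by lowest p in G1 against Control, and all tested regulators. Reference libraries are those of Control and wild type (single mutant). Replicates are numbered by accession and pair no libraries.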

Additional observations from a re-analysis of the deposited data

How the results depend on the processing

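Of 28 called fold changes of named members in the comparisons without G2, 15 were called under every alternative run, 13 were lost under at least 1, and 0 changed sign. In G1 against Control 7 calls were gained under an alternative, 3 of Dnaaf2 and 1 each of Cfap36, Cfap44, Dnaaf1 and Dnaaf5. By library totals alone 15 members rose in G1 against Control, 14 in G1 against wild type (single mutant), and 13 and 12 were higher in G2 than in Control and wild type (single mutant), with 1 lower in each of the latter. Under that scaling the shares of all genes were 31.9%, 32.6%, 23.7% and 25.9% higher, so the members' counts rose with the background. The shares of all genes lower in G2 were 4.08% and 4.67%. With a mean of at least 1 CPM, 2 members fell in G1 against Control and 3 relative to wild type (single mutant), beside 21% and 21.5% of all genes. In G2, 3 were higher and 1 lower than in Control, beside 14.6% and 10.8%. Also lower in G2 was 1 member against wild type (single mutant), beside 12.4%, and 1 against G1, beside 3.66%. That filter tests fewer members. Without a filter 4 were higher in G2 than in Control, beside 6.63% of all genes. With only the 2 groups compared, 1 was higher in G2 than in Control, beside 9.05% of all genes. In that setting 0 were higher and 1 lower in G2 than in G1, beside 2.61% and 2.02%. limma with voom gave 0 higher in G2 than in G1, beside 4.61% of all genes, and DESeq2 1 lower, beside 7.44%. Leaving out each library in turn gave 5 to 9 rises and 4 to 5 falls in G1 against Control, 4 to 8 and 3 to 6 in G1 against wild type (single mutant), 2 to 6 higher and 1 to 3 lower in G2 than in Control, 3 to 5 and 1 to 3 in G2 against wild type (single mutant), and 0 to 2 higher and 0 lower in G2 than in G1. A group left with 1 library is assumed to vary like the others. The cause of these shifts was not tested. No paired analysis was possible because the labels give the groups no shared replicate numbers. Most members lie under 1 CPM, where depth limits what can be called.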
